A study of Mus musculus with 20 samples.

Results

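The 10 genes described here encode S100 proteins, and they were taken by their symbols from a table of 22090 mouse genes that holds 17 S100 genes in all. They were S100a7a and S100a8, which are known from inflamed skin, S100a10, S100a11, S100a14 and S100a16 of the epidermis, S100a3 of the hair, and S100a4, S100a6 and S100a13, which are also made by stromal cells. RNA-seq was performed on 20 back skin tissues of female SKH-1 hairless mice, which were 7 months old when the experiment began, before the weeks of irradiation. They comprised 8 normal skin (NS), 8 actinic keratosis (AK, a premalignant lesion) and 4 cutaneous squamous cell carcinoma (cSCC) samples. The study used 8 mice, 4 kept from ultraviolet light and 4 irradiated by a solar simulator with UVA and UVB. All AK and cSCC came from the irradiated mice, while NS came from both arms, and the labels did not tell the 2 kinds of NS apart. By the study's design each irradiated mouse gave 1 NS, 2 AK and 1 cSCC, so the 8 AK stand for 4 mice. Since the labels did not name the mouse, the p-values below measure the spread between samples, some of which share a mouse. All 10 genes had counts and all 10 passed the filter on low counts in each comparison.

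S100 proteins are small calcium-binding proteins with a pair of EF hands, usually acting as dimers. Inside the cell they bind targets such as annexins and non-muscle myosin. Outside the cell, S100A8 with S100A9 (calprotectin) acts on receptors including TLR4 and RAGE, and it is abundant in neutrophils and in keratinocytes of stressed or wounded skin. S100A7A, the mouse psoriasin-like protein, is likewise made by activated keratinocytes. Most of the genes lie side by side in the epidermal differentiation complex, which also holds filaggrin and other genes of the cornified layer.

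The promoters of S100a7a and S100a8 are shown because both genes were higher in cSCC than in AK, and that of S100a11 because it represents the epidermal genes. Each is the 250 bases before the gene's start from RefSeq (GRCm38.p6), on the forward strand, at chr3:90654052-90654301, chr3:90668821-90669070 and chr3:93520246-93520495. These RefSeq starts lie 285, 93 and 8 bases after the gene starts of the GENCODE M21 annotation. By GENCODE the whole S100a7a window, with its match, lies within the gene. So does the end of the S100a8 window, with its match. Capitals mark the motif matches listed after the sequences.
S100a7a: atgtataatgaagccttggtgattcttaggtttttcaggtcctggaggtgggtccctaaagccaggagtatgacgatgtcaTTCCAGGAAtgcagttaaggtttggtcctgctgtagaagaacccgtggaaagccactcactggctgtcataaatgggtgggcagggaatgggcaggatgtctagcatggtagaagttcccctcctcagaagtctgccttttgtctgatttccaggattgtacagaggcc
S100a8: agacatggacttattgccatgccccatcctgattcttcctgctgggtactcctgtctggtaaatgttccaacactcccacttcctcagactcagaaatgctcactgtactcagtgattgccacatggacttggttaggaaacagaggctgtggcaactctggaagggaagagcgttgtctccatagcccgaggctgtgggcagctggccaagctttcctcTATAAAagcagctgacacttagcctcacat
S100a11: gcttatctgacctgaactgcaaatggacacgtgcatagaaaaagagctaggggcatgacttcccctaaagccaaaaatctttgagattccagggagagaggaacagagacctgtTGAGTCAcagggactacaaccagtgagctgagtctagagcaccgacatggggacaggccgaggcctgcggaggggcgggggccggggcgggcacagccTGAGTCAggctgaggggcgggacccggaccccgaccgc

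Of the 10 genes, 8 matched RefSeq, with 12 promoter windows from 250 bases before to 50 bases after a start. The TATA box letters TATAAA, searched on the gene's own strand, were found for S100a8, with the first base 30 bases before the start, and also for S100a4 and S100a3. They occur in 8.32% of all 32851 promoters. The STAT site TTCNNNGAA, searched on both strands, matched S100a7a only, and is held by 8.30% of all promoters. The AP-1 site TGANTCA, searched on both strands, matched S100a11, at 136 and 38 bases before the start, and S100a16, against 7.81% of all promoters. The C/EBP letters TTGCNNAA (10.8% of all promoters) and a longer NF-kB consensus (0.411%) matched none of the 10 genes' windows. The motifs printed in capitals do not overlap each other, and a match is a description of the letters only.

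In the GENCODE M21 annotation of GRCm38 the 10 genes span 3050 kb of chromosome 3, from base 90514435 to base 93564643, all on the forward strand. In this span there are 74 protein-coding genes. S100a13, S100a14, S100a16, S100a3, S100a4, S100a6, S100a7a and S100a8 lie in that order at one end. A gap of 2850 kb separates S100a8 (90668978 to 90670035) from S100a11 (93520488 to 93526287) and S100a10 (93555080 to 93564643) at the other end. S100a7a lies between 90654017 and 90658669. The gene model of S100a3 overlaps S100a2 and Gm42674, and that of S100a4 overlaps Gm42674, so reads in the shared parts could have been split. S100a11 has an annotated processed pseudogene, S100a11-ps, with which it could share reads.

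The libraries held 775750 to 14055206 counts, and 3 counts, taken as the detection floor, corresponded to 0.225 to 3.78 CPM. The floor and all intervals here cover counting error or the spread between these samples only. CPM are counts set to a common library size, here scaled by TMM factors over the 20 samples. The keratinocyte markers (7 genes, Krt5, Krt14, Krt1, Krt10, Dsp, Dsg3 and Perp) were present in every library, summing to 11671 to 26676 CPM in NS and to 14845 to 26238 CPM in AK. They summed to 23958, 19909, 6943 and 5475 CPM in cSCC replicates 18 to 21. Among the cSCC libraries 3 stood apart. Haemoglobin genes took 46.8% of the counts of cSCC replicate 18, against at most 14.3% in the other libraries. Lung markers (5 genes) summed to 35527 CPM in cSCC replicate 20 and heart muscle markers (6 genes) to 47784 CPM in cSCC replicate 21, which goes against the skin label of both. The main differences that rest on cSCC are therefore also given without replicates 20 and 21, which leaves 2 cSCC samples. In bulk tissue, fewer cells of a type and less RNA per cell cannot be told apart.

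For the inflammatory genes the question was whether they differ between normal skin, premalignant lesion and carcinoma. S100a7a was higher in cSCC than in both NS and AK, and S100a8 was higher in cSCC than in AK. Neither passed the test in AK vs. NS, where some alternative methods did call S100a7a. Genes were called when the Benjamini-Hochberg adjusted p of edgeR's quasi-likelihood test, over all genes tested, was under 0.05 and the fold change was above 1.5 or below 0.67.

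In AK vs. NS, 1 of the 10 genes was called, S100a14, which was lower. Of 11677 genes tested in that comparison 4.64% were called, 264 higher and 278 lower. In cSCC vs. NS, S100a7a was the 1 gene called of 10, against a background of 19.3% of 12097 genes, 1414 higher and 926 lower. In cSCC vs. AK, S100a7a and S100a8 were called, 2 of 10, against 24.4% of 12032 genes, 1931 higher and 1004 lower. The groups did not overlap for S100a7a in both comparisons with cSCC, where 2.70% and 3.33% of all genes tested lay wholly higher. The median log2 difference of the 10 genes was -0.41 in AK vs. NS, 0.20 in cSCC vs. NS and 0.73 in cSCC vs. AK. Over all genes tested it was -0.04, 0.14 and 0.17.

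**Figure D1:**
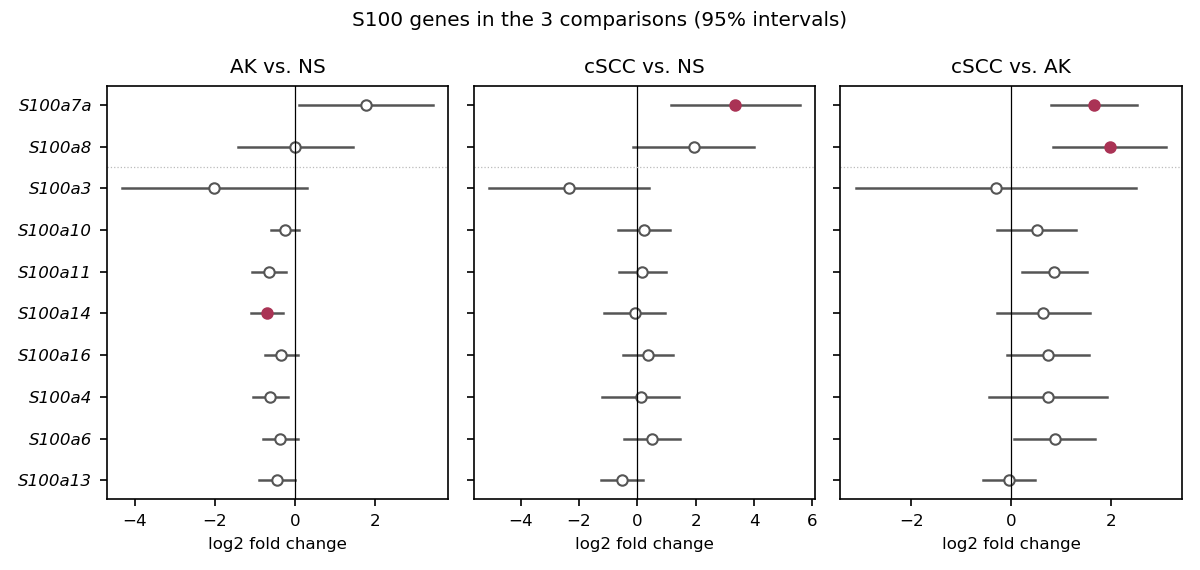
Log2 fold change of each of the 10 S100 genes in the 3 comparisons (edgeR, 1 per panel), with 95% intervals as lines; filled points were called and open points were not. S100a7a and S100a8, above the dotted line, are called in cSCC vs. AK, and S100a14 is the 1 gene called in AK vs. NS.

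S100a7a was a low-abundance gene. In NS it ranged from 0 to 15.5 CPM with a median of 0.738, and 3 of the 8 NS samples had no count. In AK it ranged from 4.86 to 29.2 CPM with a median of 10.97. In cSCC it was 38.9, 45.3, 41.0 and 43.8 CPM, from 36 to 265 counts. All 4 cSCC samples lay above all 16 others, and the cSCC values had a coefficient of variation of 6.76%, the smallest of any of the 10 genes in any group. At 36 counts the counting error alone is larger than this spread, so it was not read as a trait of the gene. NS replicates 7 and 8, at 13.7 and 15.5 CPM, lay within the AK range, and the other 6 NS samples lay below every AK sample.

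S100a7a was 3.36 higher in cSCC than in NS on the log2 scale (SE 1.03, a 10.3-fold difference, edgeR adjusted p = 0.0345, 95% interval 1.17 to 5.56). It was 1.65 higher in cSCC than in AK (SE 0.40, 3.13-fold, edgeR adjusted p = 0.0111, interval 0.78 to 2.51). Without cSCC replicates 20 and 21 the differences were 3.32 and 1.60, and neither was called (edgeR adjusted p = 0.0905 and 0.0508). In AK vs. NS the difference was 1.77 (SE 0.80, interval 0.11 to 3.44) with an edgeR adjusted p of 0.176. In that comparison the exact two-sided permutation test on log2(CPM + 1) of this single gene gave p = 0.00544, not adjusted for the other genes. Limma with quality weights also called S100a7a in AK vs. NS (3.62), and so did the study's unadjusted rule (2.41). Of 11 alternatives other than leaving out 1 sample, 4 called it, some by an unadjusted p, and 7 did not. No fit without 1 sample called it. The call in cSCC vs. NS was lost when any 1 of NS replicates 1, 4, 5 and 6 or cSCC replicates 19, 20 and 21 was left out (differences of 3.17 to 4.00 over all 12 such fits, edgeR adjusted p from 0.0212 to 0.0625). The call in cSCC vs. AK held in all 12 such fits. In 1 fit of all 20 samples, which shares 1 estimate of the spread, the difference from AK was not called (1.51, edgeR adjusted p = 0.183), and DESeq2 did not call the difference from NS (3.41, adjusted p = 0.0677).

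**Figure D2:**
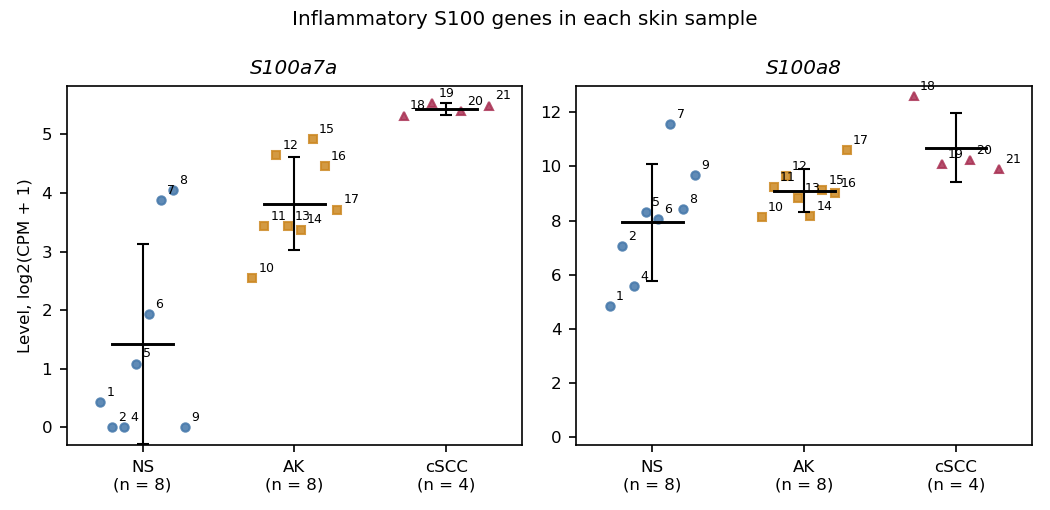
Level of S100a7a (left) and S100a8 (right) in each sample as log2(CPM + 1), by group, with replicate numbers beside the points; horizontal bars are the group mean and error bars 1 SD. The 4 cSCC samples lie above all others for S100a7a, while for S100a8 NS replicate 7 and cSCC replicate 18 lie far above their groups.

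S100a8 encodes a subunit of calprotectin and was far more abundant than S100a7a, also per length. In NS it ranged from 27.3 to 3057 CPM with a median of 292, and in AK from 279 to 1544 CPM with a median of 536. In cSCC it was 6151, 1084, 1197 and 949 CPM. The groups overlapped. NS replicate 7, at 3057 CPM, exceeded 3 of the 4 cSCC samples and lay far above the next NS sample, replicate 9 at 824 CPM. Within NS the highest value was 112 times the lowest, the widest spread of the genes detected in all 8 NS samples, against 5.53 times within AK.

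S100a8 was 1.97 higher in cSCC than in AK on the log2 scale (SE 0.53, 3.93-fold, edgeR adjusted p = 0.0165, 95% interval 0.84 to 3.11). Without cSCC replicate 18 the difference was 0.82 and was not called (edgeR adjusted p = 0.169), and without replicates 20 and 21 it was 2.57 (edgeR adjusted p = 0.00912). It was not called in 1 fit of all 20 samples (1.88, edgeR adjusted p = 0.0892) or by limma with quality weights (1.61, adjusted p = 0.0521). Against NS, the difference in cSCC was 1.93 (SE 0.97, interval -0.14 to 4.01), which did not pass (edgeR adjusted p = 0.177). Without NS replicate 7 it was 3.12 and was called (edgeR adjusted p = 0.0221). Without cSCC replicate 18 it was 0.81 (edgeR adjusted p = 0.595), and without replicates 20 and 21 it was 2.54 (edgeR adjusted p = 0.163). On log2(CPM + 1) the difference of means from NS was 2.76 (exact two-sided permutation test of this gene, p = 0.0364, not adjusted). Of 12 alternatives other than leaving out 1 sample, 2 called the difference from NS and 10 did not. In AK vs. NS the difference was 0.00 (SE 0.69, edgeR adjusted p = 0.997), and the interval of -1.43 to 1.44 still allows a change of either sign. The difference of mean log2(CPM + 1) was 1.15 there (exact two-sided permutation test of this gene, p = 0.183, not adjusted).

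S100a9, the partner of S100a8 in calprotectin, was 2.25 higher in cSCC than in AK (SE 0.49, edgeR adjusted p = 0.00622). Against NS its difference in cSCC was 2.51 (SE 0.93, edgeR adjusted p = 0.0719). Without NS replicate 7 it was 3.49 and called (edgeR adjusted p = 0.0153). With all samples kept, DESeq2 (2.53, adjusted p = 0.0228) and limma (3.59, adjusted p = 0.0448) called it. So did 1 fit of all 20 samples (2.46, edgeR adjusted p = 0.0228), but not library size alone or upper quartile factors. In AK vs. NS the difference of S100a9 was 0.30 (edgeR adjusted p = 0.802). Without cSCC replicate 18 the S100a9 differences were 1.22 from AK, still called (edgeR adjusted p = 0.0292), and 1.51 from NS (edgeR adjusted p = 0.267). Without replicates 20 and 21 they were 2.84 from AK (edgeR adjusted p = 0.00282) and 3.10 from NS (edgeR adjusted p = 0.0745). Its level was 8418, 1884, 2169 and 1021 CPM in cSCC, 308 to 1415 in AK and 33.3 to 2662 in NS. Across the 20 samples, after the group means were subtracted, log2(CPM + 1) of S100a8 and S100a9 had a Pearson r of 0.984, as a description over points that share libraries. The ratio of S100a9 to S100a8 in CPM stayed within 0.781 to 1.81 in all 20 samples, with medians of 1.15 in NS, 1.31 in AK and 1.55 in cSCC. Both genes of the pair therefore stood high or low in the same libraries.

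Neutrophils are cells that carry much S100A8. The summed level of 10 neutrophil markers was 13.2 to 827 CPM in NS, 49.99 to 302 in AK and 205, 424, 490 and 788 in cSCC, with medians of 38.1, 171 and 457 and overlapping ranges. Of the 6 tested in AK vs. NS edgeR called 0, against 4.64% of all genes, and 0 had an unadjusted p under 0.05. Of the 8 tested in each of the comparisons with cSCC, Csf3r and Cxcr2 were called higher vs. NS, and Csf3r, Cxcr2 and Ltf vs. AK, against the 19.3% and 24.4% of all genes called there. Without cSCC replicates 20 and 21, Csf3r was called in both (3.39 and 3.74, edgeR adjusted p = 0.0438 and 0.00543) and Cxcr2 vs. AK (1.53, edgeR adjusted p = 0.0195). The call of Cxcr2 vs. NS was then lost (1.93, edgeR adjusted p = 0.0658), as it was without replicate 20 alone (1.66, edgeR adjusted p = 0.0637), and so was that of Ltf (2.15, edgeR adjusted p = 0.0814). Elane, a granule protease of immature neutrophils, had no count in 17 of the 20 libraries. The samples with the most S100a8 were not those with the most marker RNA. cSCC replicate 18, at 6151 CPM of S100a8, had the lowest neutrophil sum of the 4 cSCC (205 CPM). NS replicate 9 had the highest neutrophil sum of all (827 CPM) with 824 CPM of S100a8, while NS replicate 7 had 283 CPM of markers with 3057 CPM of S100a8. The within-group r of S100a8 with the neutrophil sum was 0.571 and with the keratinocyte sum 0.440, and for S100a7a these were 0.220 and 0.339. The part of neutrophils in the S100a8 differences was not tested.

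**Figure D3:**
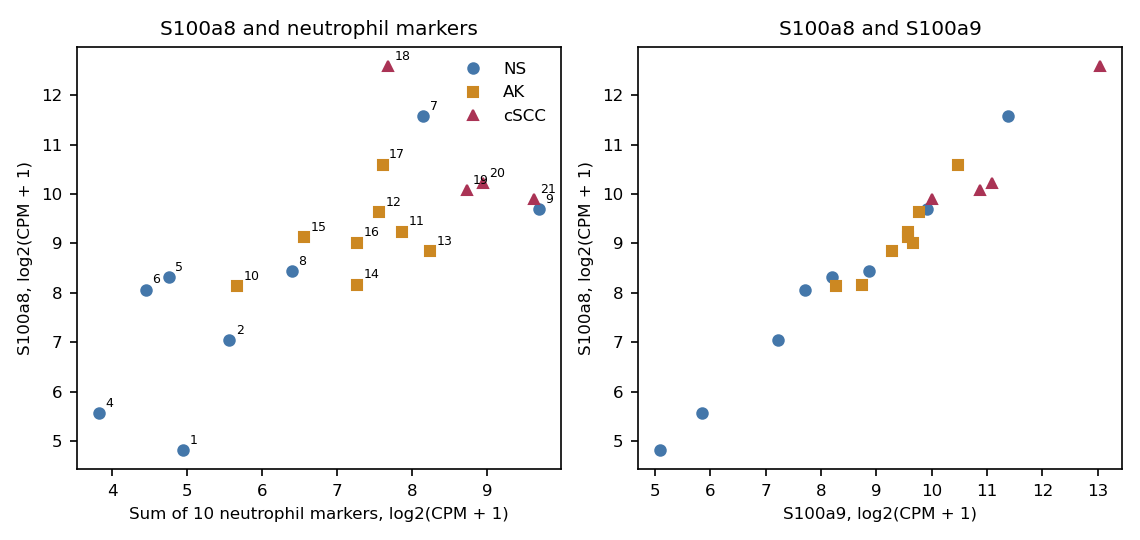
Level of S100a8 in each of the 20 samples against the summed level of 10 neutrophil markers (left, replicate numbers beside the points) and against S100a9 (right), all as log2(CPM + 1). S100a8 and S100a9 fall along one line (within-group r of 0.984), while the points scatter against the neutrophil sum (0.571).

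The genes whose levels resembled those of S100a7a and S100a8 most closely were listed for each. They were ranked among 11472 genes by the same within-group Pearson r over 20 samples, as a description. For S100a7a the 5 leading genes were Tmprss11b, an epithelial serine protease, at 0.878, Sprr2h at 0.868, Sprr2j-ps at 0.867, Lce3d at 0.865 and Lce3b at 0.863. Sprr2 and Lce3 genes encode small proteins of the cornified envelope, and their members are similar enough in sequence for reads to be split between copies. For S100a8 they were S100a9, Gm5483 at 0.885, Stfa2l1 at 0.856, Cdhr1 at 0.851 and Stfa2 at 0.811. Stfa genes encode stefin A cysteine protease inhibitors, again a family of close copies. No gene was in both lists, which was not read as a result, since lists of 5 out of 11472 genes seldom share one. The r of S100a7a with S100a8 was 0.528, or 0.312 without NS replicate 7.

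The same question was asked of the epidermal, hair and stromal S100 genes. Of these 8, S100a14 in AK vs. NS was the 1 call. S100a14, a gene of stratified epithelia, had 197 to 442 CPM in NS, with a median of 265, and 126 to 248 CPM in AK, with a median of 195. The ranges overlapped, with 5 NS samples above every AK sample. It fell by 0.70 on the log2 scale in AK (SE 0.19, 1.63-fold lower, edgeR adjusted p = 0.0419, 95% interval -1.11 to -0.30). The call was lost when any 1 of NS replicates 1, 2, 4 and 5 or AK replicates 11 to 17 was left out, with differences of -0.77 to -0.60 and edgeR adjusted p from 0.0276 to 0.0931 over the 16 fits. It was also lost without a filter on low counts (edgeR adjusted p = 0.0576) and in 1 fit of all 20 samples (edgeR adjusted p = 0.330). Its cSCC levels were 310, 603, 115 and 56.6 CPM, so that replicates 18 and 19 lay above every AK sample and replicates 20 and 21 below them. The difference from AK was 0.64 (SE 0.43, interval -0.28 to 1.57, edgeR adjusted p = 0.294). Without replicates 20 and 21 it was 1.38 (edgeR adjusted p = 0.00690).

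S100a16, another epithelial S100 gene, was likewise higher in cSCC replicates 18 and 19 than in 20 and 21, at 1029, 912, 320 and 192 CPM. It ranged from 331 to 699 CPM in NS and from 262 to 581 CPM in AK. In cSCC vs. AK its difference was 0.73 (SE 0.39, edgeR adjusted p = 0.180), and without replicates 20 and 21 it was 1.37 (edgeR adjusted p = 0.00975). Against NS the values were 0.36 (SE 0.39, edgeR adjusted p = 0.552) and, without these replicates, 1.01 (edgeR adjusted p = 0.0404). The sum of keratinocyte markers was lowest in the same 2 libraries.

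S100a11, which binds annexin A1 and takes part in keratinocyte growth control, had 127 to 297 CPM in NS, with a median of 135, and 75.1 to 146 CPM in AK, with a median of 109. In AK vs. NS its difference was -0.65 (SE 0.20, edgeR adjusted p = 0.0619), and it was called without NS replicate 9 (-0.70, edgeR adjusted p = 0.0477). DESeq2 called it too (-0.66, adjusted p = 0.0293), as did edgeR with library size alone (-0.73, adjusted p = 0.0338). Limma, 1 fit of all 20 samples and edgeR without a filter did not. Of 12 alternatives other than leaving out 1 sample, 7 called it, some by an unadjusted p, and 5 did not. The cSCC samples had 308, 238, 159 and 63.3 CPM. The difference from AK, 0.86 (SE 0.31, edgeR adjusted p = 0.0525), lay just outside the threshold and was called without replicate 21 (1.07, edgeR adjusted p = 0.00735) and without replicates 20 and 21 (1.34, edgeR adjusted p = 0.00364). It was also called by DESeq2 (0.88, adjusted p = 0.0385) and limma (0.94, adjusted p = 0.0356). Of 13 alternatives other than leaving out 1 sample, 5 called it and 8 did not. S100a10, the p11 partner of annexin A2, was at 398 to 785 CPM in NS and 373 to 602 CPM in AK. The cSCC values were 660, 1010, 743 and 127 CPM. Its differences were -0.25 in AK vs. NS, 0.23 in cSCC vs. NS and 0.51 in cSCC vs. AK (SE 0.16, 0.41 and 0.37), and none was called. Without replicates 20 and 21 the last was 0.89 (edgeR adjusted p = 0.0311), and without replicate 21 alone 0.77 (edgeR adjusted p = 0.0298).

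S100a3 is expressed in the hair cuticle, and its values in this hairless strain were uneven. In NS it was 170, 67.7 and 53.0 CPM in replicates 4, 5 and 6, 12.8 in replicate 1, and 1.70 to 4.63 in the other 4. In AK it was 65.1 CPM in replicate 14 and 0 to 4.15 in the other 7. In cSCC it was 13.2, 13.2, 2.28 and 1.49 CPM. The differences were -2.01 in AK vs. NS (SE 1.10, edgeR adjusted p = 0.268), -2.34 in cSCC vs. NS (SE 1.28, edgeR adjusted p = 0.214) and -0.31 in cSCC vs. AK (SE 1.31, edgeR adjusted p = 0.889). Without AK replicate 14 the first was -4.59 and was called (edgeR adjusted p = 0.0372). Hair shaft keratins (7 of the list in the table) summed to 123, 126 and 15.2 CPM in NS replicates 4, 5 and 6 and to 87.5 CPM in AK replicate 14, against 0 to 10.1 CPM in the other 16 libraries. The within-group r of S100a3 with that sum was 0.808, and the part of hair tissue in the S100a3 differences was not tested.

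**Figure D4:**
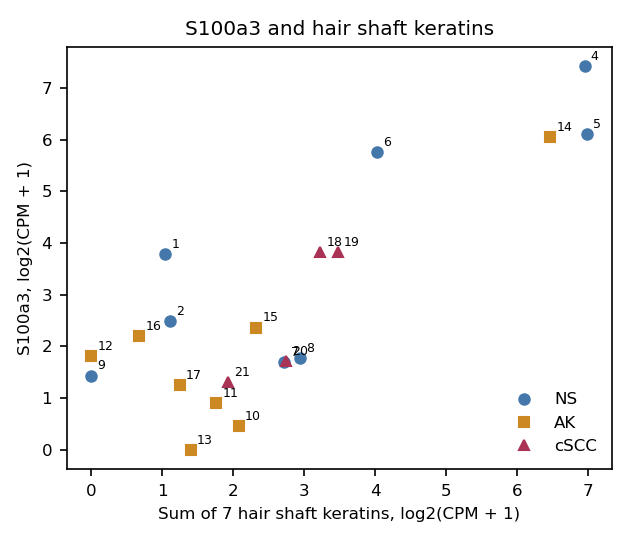
Level of S100a3 in each of the 20 samples against the summed level of 7 hair shaft keratins, both as log2(CPM + 1), with replicate numbers beside the points. NS replicates 4, 5 and 6 and AK replicate 14 hold the 4 highest values on both axes.

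Of the genes also made by stroma, S100a4, a marker of fibroblasts and motile cells that binds non-muscle myosin IIA, had 85.0 to 302 CPM in NS, with a median of 151, and 84.2 to 150 CPM in AK, with a median of 106. Its difference in AK vs. NS was -0.61 (SE 0.21, edgeR adjusted p = 0.0868). The 4 cSCC samples had 80.6, 96.2, 485 and 16.04 CPM, so that cSCC held both the highest and the lowest of the 20 values. The difference of 0.73 from AK (SE 0.55, edgeR adjusted p = 0.350) turned to -0.22 without replicates 20 and 21 (edgeR adjusted p = 0.607). Against NS it was 0.11 (SE 0.61, edgeR adjusted p = 0.921), and -0.87 without these replicates (edgeR adjusted p = 0.180).

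S100a6 (calcyclin), which binds the calcyclin-binding protein Cacybp, was 844, 657, 1278 and 154 CPM in cSCC, 312 to 606 CPM in AK and 288 to 860 CPM in NS. It was higher in 3 of the 4 cSCC samples than in every AK sample, and its difference from AK was 0.87 (SE 0.38, edgeR adjusted p = 0.106). Without replicates 20 and 21 that difference was also 0.87 and was called (edgeR adjusted p = 0.0369), as it was without replicate 21 alone (1.14, edgeR adjusted p = 0.00896). S100a13, which takes part in the release of FGF1 and interleukin 1 alpha, was low, at 23.4 to 84.9 CPM in NS, 30.6 to 46.3 in AK and 48.6, 22.8, 36.4 and 24.8 in cSCC. Its differences were -0.45, -0.53 and -0.04 in the 3 comparisons (SE 0.21, 0.34 and 0.25), none called.

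**Figure D5:**
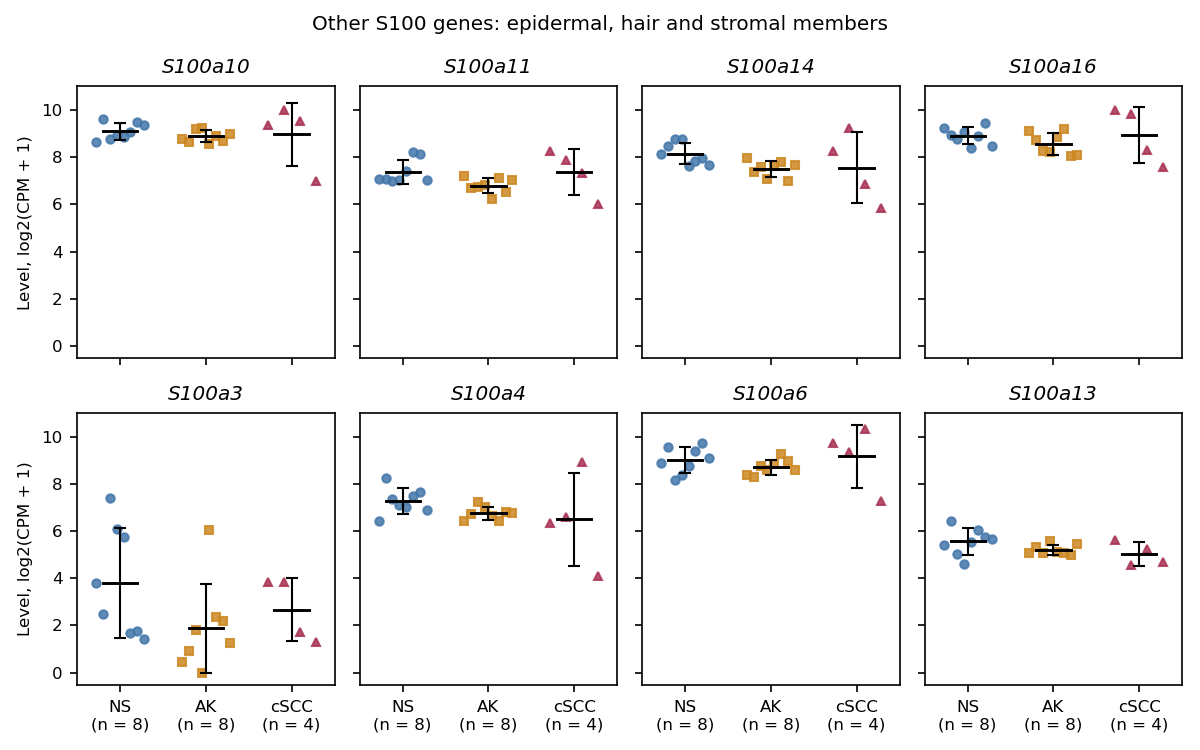
Level of the 8 epidermal, hair and stromal S100 genes in each sample as log2(CPM + 1), by group; horizontal bars are the group mean and error bars 1 SD. Most genes spread more within cSCC than within NS or AK, and cSCC replicate 21, the last triangle of each panel, is the lowest of all 20 samples for S100a10, S100a11, S100a14, S100a16, S100a4 and S100a6.

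The call of cSCC vs. AK thus rested on which cSCC libraries were used. With all 4, the 2 inflammatory genes were called and none of the other 8. With replicates 18 and 19 alone, 6 genes were called higher, S100a8, S100a6, S100a10, S100a11, S100a14 and S100a16, while 6.71% of 12567 genes tested were called higher. S100a7a was not called in that fit. These counts come from 2 cSCC samples, 1 of which is the library rich in haemoglobin RNA. Leaving out the haemoglobin genes kept the same calls as with them, 1, 1 and 2 in the 3 comparisons.

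The contrast of the inflammatory pair with the other 8 genes was described within each sample as the mean log2(CPM + 1) of the pair minus that of the 8. In NS the contrast lay between -4.88 and 0.40 with a median of -2.62. In AK it lay between -1.47 and 0.42 with a median of -0.13, and in cSCC it was 1.27, 0.14, 0.53 and 2.21 in replicates 18 to 21, with a median of 0.90. The highest NS value belonged to replicate 7 and the highest cSCC value to replicate 21, where the 8 genes were at their lowest, summing to 635 CPM. The sum of the 8 genes was 1817 to 3059 CPM in NS and 1549 to 2149 CPM in AK. The share of S100a8 in the CPM of the 10 genes was 1.32 to 55.2% in NS, 13.2 to 48.1% in AK and 64.9%, 23.2%, 27.4% and 58.3% in cSCC replicates 18 to 21, with medians of 11.4%, 22.8% and 42.8%. The medians therefore rose from NS to AK to cSCC, while the ranges overlapped.

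Per kilobase of annotated exon, the order of the median levels in NS was S100a10, S100a8, S100a6, S100a16, S100a11, S100a4, S100a14, S100a13, S100a3 and S100a7a, from 428 down to 0.536 CPM per kb. The ranges of the first 6 overlapped across samples, and whether neighbours differed within samples was not tested. In AK and cSCC the order was led by S100a8 (medians 773 and 1644 CPM per kb), then S100a10 and S100a6, with S100a3 last and S100a7a next to last. The exon length of S100a3, 5660 bases, includes long overlapping transcripts, so its level per length is uncertain.

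Of the 28 pairs of the 8 other genes, 22 had a positive within-group r over the 20 samples (median 0.386, from -0.519 to 0.799). Without cSCC replicates 20 and 21 the r was positive for 17 of the 28 pairs, with a median of 0.0920. The highest were S100a14 with S100a16 (0.799) and S100a10 with S100a6 (0.797), and without cSCC replicates 20 and 21 they were 0.412 and 0.463. With the sum of keratinocyte markers the r was 0.791 for S100a11, 0.708 for S100a16 and 0.683 for S100a14. S100a4 (0.634), S100a6 (0.581) and S100a10 (0.562) had their highest r with the sum of macrophage markers. That list held 7 genes (Cd68, Csf1r, Lyz2, C1qa, C1qb, C1qc and Mrc1), and its sum was mostly Lyz2. Lyz2 had medians of 1761, 3475 and 2672 CPM in NS, AK and cSCC, where the sum had 1957, 4087 and 3193. All r with marker sums, here and above, cover the 20 samples and were not taken without cSCC replicates 20 and 21. These 2 libraries had the lowest keratinocyte sums, and replicate 21 also had the lowest macrophage sum. What these cell types contribute to each gene was not tested.

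The remaining genes of the system were followed in 4 lists. Of 6 other S100 genes in the table, 2 passed the filter, S100a1 and S100a9, and S100a9 in cSCC vs. AK was the 1 call in the 3 comparisons. S100a1, a muscle S100 gene, reached 1104 CPM in cSCC replicate 21, the library with heart markers, against 29.0 to 295 CPM elsewhere.

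The fused S100 proteins, large cornified-layer proteins with an S100 domain, are encoded in the same complex. Of 6 tested, Flg, Flg2 and Hrnr were called lower in cSCC vs. NS, and these and Rptn in cSCC vs. AK, where 926 of 12097 and 1004 of 12032 genes tested were called lower. None was called higher, and the list's median log2 difference was -2.95 and -3.53. The differences that were not called were -1.50, -0.88 and -0.59 for Rptn, Tchh and Crnn vs. NS (edgeR adjusted p = 0.446, 0.505 and 0.749) and -0.53 and 0.73 for Tchh and Crnn vs. AK (edgeR adjusted p = 0.620 and 0.667). Of the 7 keratinocyte markers, Krt1 and Krt10, keratins of the differentiated layers, were also lower in cSCC vs. NS (-3.46 and -4.04, edgeR adjusted p = 0.0244 and 0.00920) and Dsg3 was higher (0.95, edgeR adjusted p = 0.0461). In cSCC vs. AK, Krt1, Krt10, Dsp and Perp were lower (-3.02, -3.12, -0.96 and -1.26, edgeR adjusted p = 0.0259, 0.0226, 0.0320 and 0.0498). Without cSCC replicates 20 and 21, Krt10 (-3.29, edgeR adjusted p = 0.0463) and Dsg3 (1.29, edgeR adjusted p = 0.0294) stayed called vs. NS, and none of the 7 vs. AK. The part of keratinocyte content in the differences of the fused genes was not tested. Flg, filaggrin, was 1279 to 5750 CPM in NS, 1168 to 5398 in AK and 7.28 to 460 in cSCC, a difference of -4.41 from NS and -4.19 from AK (SE 0.92 and 0.89, edgeR adjusted p = 0.00680 and 0.00583). Hrnr, hornerin, had differences of -4.80 and -4.92 (edgeR adjusted p = 0.00683 and 0.00498). Neither gene's cSCC range met that of NS or AK, where 5.73% and 6.84% of all genes tested lay wholly lower. Flg2 was already lower in AK (-2.12, SE 0.49, edgeR adjusted p = 0.0238), a call lost without NS replicate 4 or AK replicate 13, and was -7.32 and -5.25 in cSCC vs. NS and vs. AK. Rptn, repetin, fell in cSCC vs. AK (-2.88, edgeR adjusted p = 0.0181), a call lost without cSCC replicates 20 and 21 (edgeR adjusted p = 0.0684). The calls of Flg, Flg2 and Hrnr in cSCC held without these replicates. In the comparison of cSCC with AK, S100a7a and S100a8 were higher while these 4 fused genes of the same complex were lower.

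Of 12 intracellular partners, 9 were tested in AK vs. NS, 10 in cSCC vs. NS and 9 in cSCC vs. AK, and 1, 3 and 3 were called, against 4.64%, 19.3% and 24.4% of all genes. Myh9, the heavy chain of non-muscle myosin IIA, was lower in AK than in NS (-1.12, SE 0.22, edgeR adjusted p = 0.0156) with no overlap of the groups, where 0.128% of genes lay wholly lower, and higher in cSCC than in AK (1.55, SE 0.34, edgeR adjusted p = 0.00655; 1.56 and still called without cSCC replicates 20 and 21, edgeR adjusted p = 0.00277). Ahnak, a large scaffold bound by S100A10, was lower in cSCC than in NS (-1.65, edgeR adjusted p = 0.0149) and than in AK (-1.07, edgeR adjusted p = 0.0480), the latter call being lost without any 1 of AK replicates 10 to 15 and 17 and cSCC replicates 19 and 21. Without replicates 20 and 21 together, Ahnak was called in both (-1.64 and -1.07, edgeR adjusted p = 0.0144 and 0.0444). Anxa6 was 1.80 and 2.28 higher in cSCC vs. NS and vs. AK (edgeR adjusted p = 0.0212 and 0.00600). Its highest level, 221 CPM, was in cSCC replicate 21, without which the difference from NS was not called (0.98, edgeR adjusted p = 0.155), and without replicates 20 and 21 neither difference was called (0.47 and 0.91, edgeR adjusted p = 0.566 and 0.218). Padi3, the enzyme that modifies S100A3, was 3.38 higher in cSCC than in NS (edgeR adjusted p = 0.0452), from 1.39 to 60.6 CPM in cSCC against 0 to 12.2 in NS, while S100a3 itself was not called. That call was lost without replicates 20 and 21 (3.78, edgeR adjusted p = 0.0690) and without any 1 of NS replicates 1, 2 and 5 to 9 and cSCC replicates 19 and 20.

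Of 5 receptors, 4 were tested, of which 0 were called in AK vs. NS, 2 in cSCC vs. NS and 1 in cSCC vs. AK. Of all genes, 4.64%, 19.3% and 24.4% were called there. In AK vs. NS, 2 had an unadjusted p under 0.05 and passed the fold limit. Of 11677 genes, 708 did so higher and 1090 lower. Bsg (basigin, a receptor for S100A9) was 2.07 higher in cSCC than in both NS and AK (edgeR adjusted p = 0.00321 and 0.00314). Its level was 887 to 4115 CPM against 339 to 670 CPM in NS and AK together. It did not overlap with either group, where 2.70% and 3.33% of all genes tested lay wholly higher. Its highest value was in cSCC replicate 21, and without replicates 20 and 21 the differences were 1.53 and 1.47 and still called (edgeR adjusted p = 0.00439 and 0.00366). Tlr4 was 1.91 higher in cSCC than in NS (edgeR adjusted p = 0.0336), which was not called without those replicates (1.66, edgeR adjusted p = 0.159) or without any 1 of NS replicates 1, 4 and 7 and cSCC replicates 19 to 21. Ager, which encodes RAGE, did not pass the filter. It was at 279 CPM in cSCC replicate 20, the library with lung markers, and at 0 to 1.80 CPM in the other 19.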

How the data were processed

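RNA was sequenced from 20 mouse skin tissues as paired-end reads from Nextera libraries. Per the labels and the study's methods, reads were trimmed with Trimmomatic and aligned with HISAT2. The submitters' processing notes name Trimmomatic 0.36, HISAT2 2.0.5, featureCounts 1.5.2 and the builds mm9 and hg19, whereas the methods name GRCm38 and StringTie, so the build of the counts is not settled. Strand use in counting is not given in the sources used here. What the authors deposited is a table of raw read counts by gene symbol, and these counts were used without change. Groups were taken from the labels. Gene positions come from GENCODE M21 (GRCm38) by symbol.

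The 10 genes and all lists were chosen with earlier results of these data known. Named from the lists were the genes called, at most 4 per list and comparison by adjusted p, and S100a9. For each comparison, only its own samples were fitted with edgeR 4.0.16 in R 4.3.3 (filterByExpr, TMM factors, quasi-likelihood test, Benjamini-Hochberg over all genes tested). Differences are log2 fold changes of the fit, with SE and 95% intervals. Levels are CPM, with a pseudocount of 1 on the log2 scale. Alternatives were library size alone, upper quartile factors, other filters, 1 fit of all 20 samples, DESeq2 1.42.0, limma 3.58.1 voom with quality weights, the study's unadjusted rule, permutation, and leaving out samples. Leaving out the haemoglobin genes was chosen after seeing the data. No 2 samples of a group held the same counts within sampling noise (smallest chi-square per degree of freedom 12.3 over 62 pairs).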

Additional observations from a re-analysis of the deposited data

Results flagged for a closer look

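In 5 of the 30 sets of CPM values (10 genes in 3 groups), the highest sample stood apart from the rest of its group. This was by Dixon's test at the 95% level. Chance gives about 1 such set in 20 only where values are normally distributed, which CPM need not be. For S100a8 the samples apart were NS replicate 7 at 3057 CPM (next 824), AK replicate 17 at 1544 CPM (next 795) and cSCC replicate 18 at 6151 CPM (next 1197). For S100a3 they were NS replicate 4 at 170 CPM (next 67.7) and AK replicate 14 at 65.1 CPM (next 4.15). Neutrophil markers summed to 283, 195 and 205 CPM in the 3 samples apart for S100a8. Hair shaft keratins summed to 123 and 87.5 CPM in the 2 samples apart for S100a3. The part of either in these values was not tested.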

How the results depend on the processing

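No paired analysis was possible because the groups share no replicate number in the labels, which also do not name the mouse. With 4 cSCC samples, 3 of them set apart by RNA of other sources, and S100a7a at 36 to 265 counts in cSCC, small differences were not detectable at this depth. DESeq2 gave S100a8 in cSCC vs. AK no adjusted p, and the filter of 10 counts in every sample left S100a7a and S100a3 untested.

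Of 773 recomputed differences of the 10 genes, 666 kept their direction and side of the threshold, 27 lost the call, 34 gained it and 46 turned direction, none of the latter called before or after. The other pseudocount, 0.1, moved none of 30 mean levels by 1 SD or more. Scaling by library size alone shifted the median of all genes from 0.14 to -0.17 in cSCC vs. NS and from 0.17 to -0.09 in cSCC vs. AK. Of all calls, 31.9% were then higher in cSCC vs. NS, 43.0% in cSCC vs. AK and 26.8% in AK vs. NS, against 60.4%, 65.8% and 48.7%. On that scale S100a7a was 3.18 and 1.398 and S100a8 1.36 and 1.38 in cSCC vs. NS and vs. AK, with S100a7a called in both and S100a8 in the latter. With upper quartile factors 32.7% of calls were higher in AK vs. NS, and with the filter of 10 counts 35.2%. One fit of all 20 samples made 9 calls of 12847 genes in AK vs. NS.

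In AK vs. NS, 1 of the 10 genes was called as reported, 4 by unadjusted p, 3 with library size alone, the 10-count filter or the study's unadjusted rule, 2 with upper quartile factors, DESeq2 or limma, and 0 without a filter or in 1 fit of all 20 samples. Leaving out 1 sample gave 0 to 2. For cSCC vs. NS, 1 was called as reported, 0 with the 10-count filter or DESeq2, 2 by the study's rule, and 0 to 2 without 1 sample. In cSCC vs. AK, 2 were called as reported, 4 by unadjusted p, 0 in 1 fit of all samples (S100a7a 1.51, adjusted p = 0.183; S100a8 1.88, adjusted p = 0.0892), 6 without cSCC replicates 20 and 21, and 1 to 5 without 1 sample, the 5 without cSCC replicate 21. Of all genes, unadjusted p called 708 higher and 1090 lower of 11677 in AK vs. NS. In cSCC vs. AK it called 2888 and 1616 of 12032. The study's rule called 790 and 1051 in AK vs. NS, and 1517 and 1874 of 12097 in cSCC vs. NS. Without cSCC replicates 20 and 21, 843 and 741 of 12567 genes were called in cSCC vs. AK. Without replicate 21 alone these were 837 and 950 of 12139.

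Of the other lists in AK vs. NS, the fused proteins had 1 call, 0 in 1 fit of all samples, 2 with limma or the study's rule and 0 to 1 without 1 sample. The partners had 1, 2 with no fold limit, library size alone, upper quartile factors, the 10-count filter or limma, 0 in 1 fit of all samples and 1 to 2 without 1 sample. The receptors had 0, 2 by unadjusted p or the study's rule, 1 with DESeq2 or limma and 0 to 1 without 1 sample. For cSCC vs. NS, the other S100 genes had 0, 1 by unadjusted p, without a filter, in 1 fit of all samples, with DESeq2, limma or the study's rule and 0 to 1 without 1 sample. The partners had 3, 1 with library size alone and 2 to 4 without 1 sample. The receptors had 2, 1 with library size alone, the 10-count filter or without cSCC replicates 20 and 21, and 1 to 2 without 1 sample. In cSCC vs. AK, the partners had 3, 5 without a filter, 6 in 1 fit of all samples and 2 to 5 without 1 sample. The receptors had 1, 2 without a filter, with limma or without cSCC replicates 20 and 21, and 1 to 2 without 1 sample. Of all genes in cSCC vs. AK, 1819 were called higher and 1160 lower of 17646 without a filter. In 1 fit of all samples these were 2131 and 1634 of 12847, and with limma 726 and 544 of 12032. By unadjusted p, 2440 genes were called higher and 1612 lower of 12097 in cSCC vs. NS.

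The differences that turned direction were small or rested on 1 library, and the cause was not tested. S100a8 in AK vs. NS (0.00) was -0.022 with library size alone, -0.085 with upper quartile factors, -0.036 without a filter, -0.097 with the 10-count filter, -0.00084 in 1 fit of all samples, -0.034 without haemoglobin genes and -0.36 to 1.17 over the fits without 1 sample. Not all alternatives lay near 0.00, since those that kept all samples ranged from -0.097 to 1.36, with 1.15 on the permutation scale. Among differences of cSCC vs. NS, S100a10 (0.23) was -0.065 by the study's rule, -0.12 on the permutation scale and -0.085 to 0.57 over the fits without 1 sample. S100a11 (0.18) was -0.16 with library size alone, -0.0024 on the permutation scale and -0.16 to 0.46 without 1 sample. S100a14 (-0.10) was 0.65 without cSCC replicates 20 and 21 and -0.86 to 0.24 without 1 sample. S100a16 (0.36) was -0.016 with library size alone and -0.026 to 0.65 without 1 sample, the lowest without cSCC replicate 18. S100a4 (0.11) was -0.726 by the study's rule, -0.78 on the permutation scale, -0.87 without cSCC replicates 20 and 21 and -1.33 (without replicate 20) to 0.49 without 1 sample. Among those of cSCC vs. AK, S100a3 (-0.31) was 2.27 with limma, 0.85 by the study's rule, 0.79 on the permutation scale, 0.48 without cSCC replicates 20 and 21, and -0.77 to 2.12 (without AK replicate 14) without 1 sample. S100a14 (0.64) was -0.13 (without cSCC replicate 19) to 0.90 without 1 sample. S100a4 (0.73) was -0.15 by the study's rule, -0.26 on the permutation scale, -0.22 without cSCC replicates 20 and 21, and -0.69 (without replicate 20) to 1.06 without 1 sample. S100a13 (-0.04) was 0.069 with the 10-count filter, 0.013 without cSCC replicates 20 and 21 and at most 0.10 without 1 sample.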
